A study of Mus musculus with 7 samples.

Results

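The transcript landscape of the telomerase-deficient left ventricle was described from the libraries titled G3 1 to G3 4, chosen as all samples of the series whose title says G3 without PGC1aOE, which gave 4 of 7 samples. The labels give the genotype as G3, the strain as C57BL/6J, the age as 12 months and the source as left ventricular tissue of mice, and the series' design text calls G3 mice telomerase-deficient. Which telomerase gene was removed is not given in the sources used here, nor whether a library stands for 1 animal. Each sample also carries a code, CG2_40, CG3_67, G2_50 and PG3_83 for G3 1 to 4, whose meaning is not stated. The other 3 samples, titled G3 PGC1aOE, were not compared. Values after ± are SDs over the 4 libraries (n = 4), which measure the spread between these samples, whatever its source.

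The ventricle is a muscle that contracts without pause and makes nearly all of its ATP in mitochondria. Its contractile unit, the sarcomere, slides thin filaments of actin, tropomyosin and troponin along thick filaments of myosin, and titin holds the lattice together. Calcium released through the ryanodine receptor starts each beat, and SERCA2, the calcium pump encoded by Atp2a2, ends it. The respiratory chain is built from proteins of 2 genomes, the small circular one inside mitochondria and the nuclear one. Many of the proteins involved exist as paralogs, related genes whose products replace each other between heart and other muscle, between ventricle and atrium, or between fetal and adult life. Only gene-level values were analysed here, so the balance measured is between paralogous genes and not between splice forms of 1 gene.

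Total counts assigned to genes were 10106705, 12016705, 11218114 and 14119403 in G3 1 to 4. A share of all counts of any functional group therefore had a 95% Wilson interval of at most 0.0296 percentage points to each side, which covers counting error only. Markers of ventricular cardiomyocytes summed to between 47695 and 64717 CPM, where CPM are counts scaled to a common library size with TMM. Markers of liver summed to at most 3.59 CPM and those of lung to at most 0.28 CPM. Endothelial markers reached 802 to 1254 CPM, fibroblast markers 481 to 962 CPM and macrophage markers 195 to 474 CPM. Of the other lists, atrial markers ranged from 75.1 to 2894 CPM, most of it from the natriuretic peptide gene Nppa, which is taken up beside the genes concerned. Tert, the protein component of telomerase, had 0 counts in every library, which allows at most 2.97e-05% of counts in the shallowest library. It was chosen with its value known, and 5052 of the 22027 genes listed likewise had no count in any library. TMM moved all genes of a library, relative to scaling by total counts, by −0.07, −0.13, 0.06 and 0.14 on the log2 scale in G3 1 to 4. G3 1 stood apart in Y-linked transcripts: Ddx3y had 74.3, 0, 0.373 and 0 CPM and Eif2s3y had 57.0, 0, 0.373 and 0 CPM, where 0 counts allow up to 0.229 CPM in G3 2 and 0.233 CPM in G3 4. Of 2 further Y-linked genes, looked up after these values were seen, Uty had 16.4, 0.381, 0.186 and 0.311 CPM and Kdm5d 21.8, 5.95, 9.97 and 5.60 CPM. The labels give no sex, and its part in the spread between libraries was not tested. In a tissue sample, fewer cells of a type and less RNA per cell cannot be told apart.

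Of 22027 genes listed, 10475 reached an FPKM of 1 (counts per kilobase of gene length, scaled to a common library total) in every library and 1421 in some libraries only. A further 5079 had counts but stayed under this level, and 5052 had no count at all. By mean FPKM, 5847 genes lay between 1 and 10, 4737 between 10 and 100 and 643 between 100 and 1000, while 75 genes stood at 1000 or more and 13 at 10000 or more. RNA was concentrated in few genes. The 10 highest genes took 25.2%, 26.2%, 31.5% and 33.9% of counts in G3 1 to 4 (29.2% ± 4.20), and the genes needed to reach 50% of all counts numbered 136, 144, 75 and 57. With the mitochondrially encoded genes taken out of the total, the 10 highest took 12.8% ± 1.25 and the number needed for 50% was 433, 467, 404 and 401. G3 3 and G3 4 were thus more concentrated than G3 1 and G3 2 on all genes, and the 4 libraries lay closer together on nuclear genes alone.

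The deposited FPKM needs a word before levels are compared between genes. It equals the counts divided by the library total and by 1 length per gene, and for 67.5% of the 16914 genes that could be compared this length lay within 1% of the mean over all annotated transcripts in GENCODE M21. Genes with many short annotated fragments are thereby divided by too small a length. Ttn, which encodes titin, was divided by 18817 bases although its longest transcript has 106824, and Myh6 was divided by 1554 bases where its principal transcript, the one annotated as the main coding form, has 6113. Among genes at a mean FPKM of 1 or more the median of the deposited over the principal length was 0.645. Levels are therefore given as deposited, with the value per principal transcript length added for several genes where it moves them by more than 1.5 times.

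The most abundant transcripts came from the mitochondrial genome. All 13 of its protein genes were among the 20 highest by FPKM, and 9 of the 10 highest genes by share of counts were mitochondrial. mt-Co1, the catalytic subunit of cytochrome oxidase, stood first with 47591, 50968, 61134 and 67879 FPKM in G3 1 to 4, and took 8.79% ± 1.44 of all counts. mt-Co2, which carries the copper centre that receives electrons from cytochrome c, had 43703, 53364, 55314 and 68870.3 FPKM. mt-Co3 had 35466, 33969, 43225 and 42099.6 FPKM, and mt-Atp6, a subunit of the proton channel of ATP synthase, had 29662, 26519, 35431 and 29886 FPKM. Each of these 4 genes was higher in G3 3 and G3 4 than in G3 1 and G3 2. mt-Cytb, the mitochondrially encoded part of complex III, was instead highest in G3 4 and next highest in G3 2, with 17326, 23802, 21465 and 30245 FPKM. The lowest of the 13 was mt-Nd5, a core subunit of complex I, at 8724 ± 1842 FPKM, which is 6.52 times below mt-Co1. mt-Nd6, the one gene of the set transcribed from the other strand, had 10824 ± 2183 FPKM, and the library kit does not mark strand. The whole genome's share of counts was 24.7%, 26.0%, 31.4% and 34.5%. In these transcripts the share of 50-base stretches that also occur in a transcript of another annotated gene was 100% for mt-Co2 and 51.1% for mt-Co1, and the handling of reads with several matches is not given in the sources used here.

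**Figure D1:**
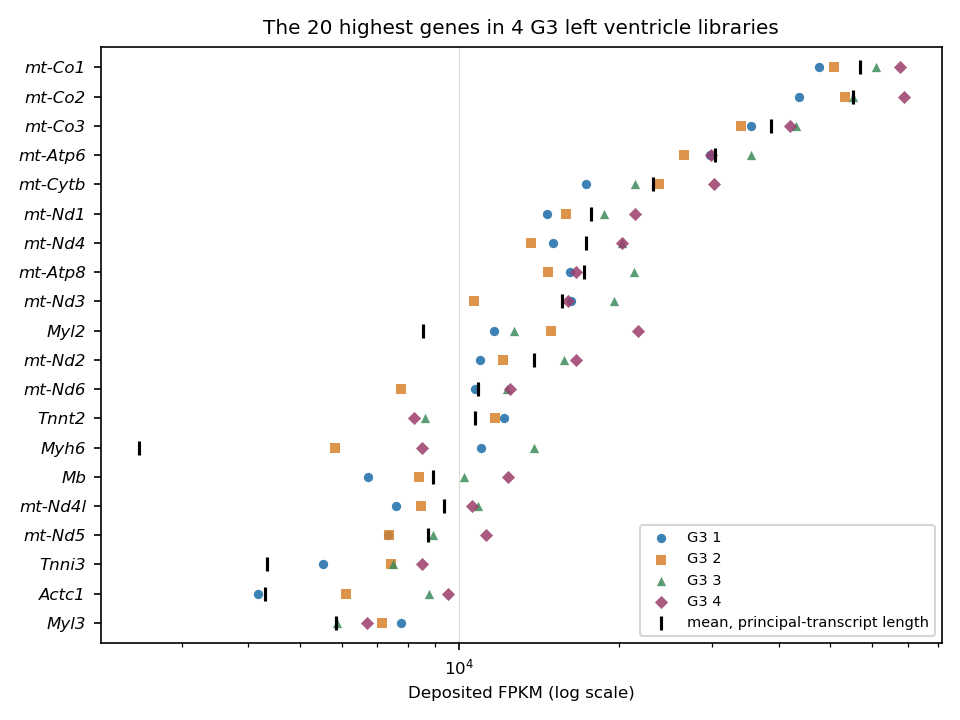
Deposited FPKM (horizontal, log scale) of the 20 genes with the highest mean, 1 symbol per library, with a black tick at the mean per principal transcript length. The 13 mitochondrial genes keep their place with either length, while the tick of Myh6 (2489 FPKM) lies far to the left of its 4 points (5821 to 13858 FPKM).

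Of the other 7 genes among the 20 highest, 6 encode sarcomere proteins and the remaining one is Mb, myoglobin, which stores oxygen in muscle. Myl2, the ventricular regulatory light chain of myosin, had 11649, 14900.1, 12663 and 21771 FPKM, and 8557 FPKM on average per principal length. Tnnt2, cardiac troponin T, had 12151, 11684, 8604 and 8224 FPKM. Mb had 6735, 8400.2, 10204 and 12381 FPKM, so that G3 4 was highest for Myl2 and Mb and lowest for Tnnt2. Myh6, the fast alpha heavy chain of myosin that dominates the adult mouse ventricle, had 10974, 5821, 13858 and 8503 FPKM. Per principal length its mean was 2489 FPKM, rank 24 in place of 14. Tnni3, cardiac troponin I, stood at 7239.8 ± 1238 FPKM (4342 per principal length), Actc1, cardiac actin, at 7139 ± 2451 FPKM (4304 per principal length) and Myl3, the ventricular essential light chain, at 6874 ± 788 FPKM. Actc1 had 4178, 6116, 8758 and 9503 FPKM, lowest in G3 1 and highest in G3 4. Of the 20 highest genes by deposited FPKM, 19 were also among the 20 highest per principal length.

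Functional groups were formed from lists of gene symbols that place 1328 genes in 32 classes and 17 broader groups. The mitochondrial genome held 29.2% ± 4.57 of counts and 37.7% ± 4.53 of summed FPKM, or 46.3% ± 4.97 per principal length. The sarcomere, with 98 genes, held 11.4%, 9.28%, 9.41% and 9.12% of counts (9.79% ± 1.05). The nuclear subunits and assembly factors of the respiratory chain and ATP synthase, with 108 genes, held 4.56%, 5.65%, 5.24% and 5.53%. Fuel oxidation, which covers fatty acid, tricarboxylic acid cycle, ketone and amino acid enzymes, held 5.10% ± 0.339. G3 1 was the library with the highest share of counts in the sarcomere and the lowest in the nuclear respiratory chain. The genes in no list, 20699 in number, held 33.3% ± 3.00 of counts.

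Smaller groups differed in how evenly the libraries carried them. Mitochondrial upkeep, that is mitochondrial ribosome, import and quality control genes, held 1.03% ± 0.0327 of counts, with a coefficient of variation (CV, the SD over the mean) of 3.18%. Fuel oxidation had a CV of 6.65% and glycolysis and glycogen one of 6.81%, at 1.51% ± 0.103 of counts. Protein synthesis was less even, with 3.67%, 4.18%, 2.64% and 3.29% of counts. Natriuretic peptides and blood globins were the least even, with CVs of 90.1% and 98.7%. The peptides took 0.355%, 0.302%, 0.0204% and 0.0653% of counts, lowest in G3 3, and the globins 0.0781%, 0.0136%, 0.175% and 0.0287%, highest in G3 3. Since shares sum to 100%, a higher mitochondrial share goes with a lower sum of all other shares.

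**Figure D2:**
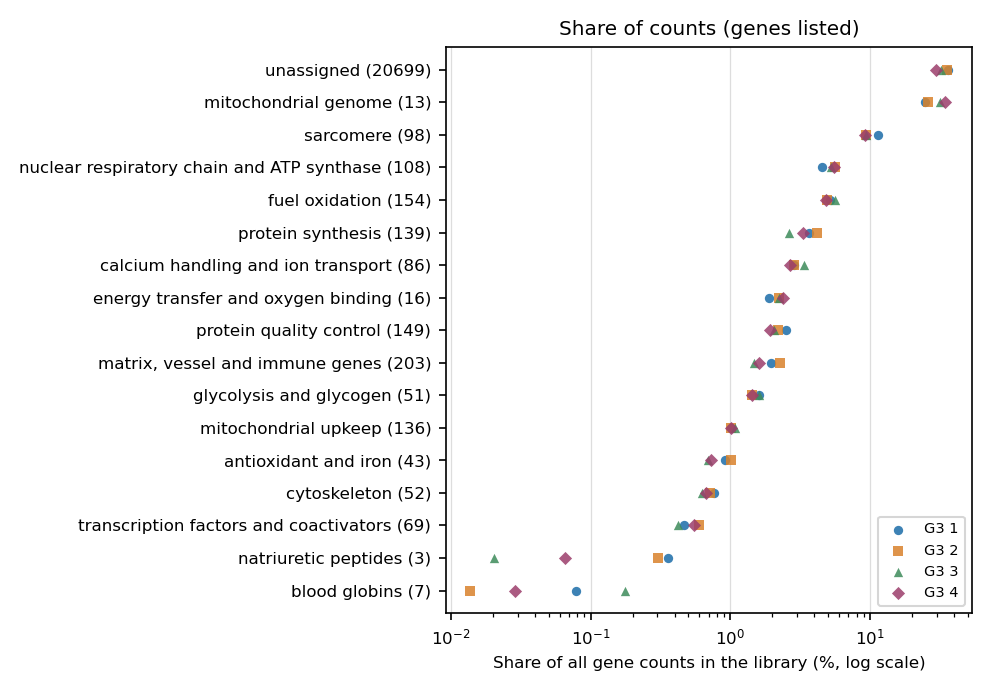
Share of all gene counts in each library (horizontal, percent, log scale) for the functional groups of at least 3 genes and for the genes in no list (unassigned), with the number of genes in brackets and 1 symbol per library. Groups of energy metabolism and the sarcomere have nearly overlapping symbols, whereas natriuretic peptides and blood globins spread over more than a 10-fold range.

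Within the sarcomere, the thick filament held 4.01% ± 0.597 of counts and the thin filament 3.44% ± 0.152. The Z-disc and costamere, which anchor filaments and membrane, held 2.57%, 1.83%, 1.49% and 1.59%. Tcap, the titin cap, had 1167, 1668, 470.4 and 2229.8 FPKM, the lowest value again in G3 3. Des, the desmin of intermediate filaments, had 2134, 1388, 942 and 823 FPKM, highest in G3 1 and lowest in G3 4, with a mean of 676 FPKM per principal length. Ttn itself had 205, 144, 215 and 149.7 FPKM as deposited but 31.4 ± 6.48 FPKM per principal length.

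Below these ranks came several nuclear genes of metabolism. Atp5b, the catalytic beta subunit of ATP synthase, had 5075, 5139.5, 5639 and 5228 FPKM, and 2407 ± 116 per principal length. Slc25a4, the heart and muscle carrier that exchanges ADP for ATP across the inner membrane, had 4776, 5215, 3753 and 3924 FPKM. Lpl, the lipase that frees fatty acids from circulating triglyceride, had 4564, 2398, 2784 and 1213 FPKM (1546 on average per principal length) and led fatty acid uptake and oxidation as deposited, though Fabp3 led per principal length at 1728 FPKM on average. Fabp3, the fatty acid carrier of heart cytoplasm, had 1519, 1376, 1947 and 2069.5 FPKM. Lpl was highest in G3 1 and lowest in G3 4, the reverse of Fabp3 for G3 4. Aldoa, muscle aldolase, led glycolysis with 2307 ± 404 FPKM, followed by Gapdh with 1794 ± 127 FPKM.

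Respiratory complexes combine subunits from both genomes, and the mitochondrially encoded ones were far more abundant as messages. In complex I, the median of 7 mitochondrial genes over the median of 36 nuclear genes was 28.9, 22.8, 35.7 and 34.4 in G3 1 to 4. In complex III the 1 mitochondrial gene stood 27.1 ± 4.17 times over the median of 9 nuclear genes. The ratio was 33.9 ± 2.85 in complex IV, from 3 mitochondrial and 10 nuclear genes, and 21.7 ± 5.52 in ATP synthase, from 2 and 15. Per principal length the ratios were 36.9 ± 8.75, 49.9 ± 9.84, 37.1 ± 3.22 and 24.5 ± 6.83 in the same order. Nuclear subunits of 1 complex also differed. The quartiles of mean FPKM over the nuclear genes differed 1.75-fold in complex I, 1.33-fold in complex III and 1.53-fold in complex IV, and 1.90-fold, 2.54-fold and 1.76-fold per principal length. The full range in complex I was 10.9-fold, from Ndufb2 to Ndufb9, and 35.1-fold per principal length. In ATP synthase the quartiles differed 2.32-fold, and the range went from Atp5g2 at 225 FPKM to Atp5b at 5270.3 FPKM. Atp5g1, Atp5g2 and Atp5g3 encode the same mature subunit c, and Atp5g3 held 71.6%, 67.8%, 72.7% and 68.4% of their summed FPKM.

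Paralog dominance was measured in 67 families as the share of the family's FPKM held by its leading gene. In 25 families 1 gene held at least 90% in every library, and in 37 at least 75%. The 25 were the same families with the same leaders per principal length, which added 4 further ones. Over all 67 families, another gene led in 4 per principal length and in 9 on counts. The mean share of the deposited leader moved by at least its SD in 29 families per principal length and in 27 on counts. The leader's mean share was under 60% in 14 families, and in 9 families the leading gene was not the same in all libraries.

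In the thin filament and in calcium cycling 1 gene held nearly all of each family. Tnnc1, the slow and cardiac troponin C, made up practically all of its family at 4294 ± 1147 FPKM. Tnni3 held at least 99.9% of troponin I, and Tnnt2 at least 99.7% of troponin T. Tpm1 held 97.7% to 98.3% of tropomyosin. Atp2a2 held at least 99.7% of the sarcoplasmic calcium pumps at 3723 ± 546 FPKM, Ryr2 at least 99.6% of ryanodine receptors and Casq2 at least 99.1% of calsequestrin, the store's calcium buffer. These values leave the skeletal muscle paralogs, such as Casq1 at 2.6 FPKM on average (1.53 per principal length), at the margin.

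In some families with an atrial or fetal member, as in sarcomeric actin, the leader was the same in all libraries but its share differed. Natriuretic peptides differed in the leader as well. Actc1 held 97.0%, 97.9%, 99.7% and 99.8% of sarcomeric actin, the rest being Acta1, the skeletal and fetal form. Acta1 had 128, 129.6, 26.7 and 17.4 FPKM. Both messages can be told apart, because their coding sequences of 1131 bases differ at 155 positions, and 2.22% of the 50-base stretches of the Acta1 transcript and 0% of those of Actc1 occur in a transcript of another gene. The first 60 coding bases from GENCODE M21 are shown, on mouse chromosomes 2 and 8, because they let the reader see how much 2 interchangeable actins differ, with capitals where the bases differ:
Actc1: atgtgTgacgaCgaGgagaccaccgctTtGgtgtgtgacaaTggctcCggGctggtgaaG
Acta1: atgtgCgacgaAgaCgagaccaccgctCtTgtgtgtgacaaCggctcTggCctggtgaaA

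In myosin heavy chain Myh6 led in every library. Myh7, the slow beta heavy chain of the fetal and stressed mouse ventricle, had 66569, 66393, 3267 and 16047 counts where Myh6 had 172358, 108706, 241592 and 186577. Myh6 held 87.1%, 81.04%, 99.2% and 96.6% of the family as deposited and 72.3%, 62.3%, 98.2% and 91.9% per principal length. Myh7 was 20.6-fold higher in the library with the most than in that with the least, by CPM. Both transcripts share stretches, 22.6% of those of Myh6 and 28.2% of those of Myh7, so the split of their reads is uncertain. Nppa, atrial natriuretic peptide, had 3010.2, 3225, 80.9 and 652.6 FPKM, and Nppb, brain natriuretic peptide, had 1213, 298, 171.5 and 113 FPKM. Nppa held 71.3%, 91.5%, 32.0% and 85.2% of the natriuretic peptides, so Nppb led in G3 3. Myh7 and Nppa were both lowest in G3 3 and next lowest in G3 4.

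The atrial light chains Myl7 and Myl4 were also higher in G3 1 and G3 2 than in the other libraries. Myl7 had 1237, 1908, 8 and 6 counts, and Sln, sarcolipin, the atrial inhibitor of the calcium pump, had 298, 688, 1 and 0. Myl2 still held at least 98.2% of regulatory light chain and Myl3 at least 97.7% of essential light chain in every library. Summed over the 4 atrial markers, CPM was 2706, 2894, 75.1 and 622 in G3 1 to 4. Nppa alone made up 2474, 2558, 73.1 and 620 CPM of this, so the sum says little beyond Nppa itself. Myl7 had 116, 146, 0.745 and 0.467 CPM. The part of atrial cells in the values of Nppa and the light chains was not tested.

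Among families of energy metabolism the heart or muscle form led in some and a general form in others. Hk1, the general hexokinase, held 64.1%, 71.1%, 54.7% and 59.2% of its family. Cox6a2 held 93.2% to 95.2% of cytochrome oxidase subunit 6a. Cox7a1 held 68.1%, 76.0%, 82.6% and 85.2% of subunit 7a, with 995, 1618, 2000.0 and 2471 FPKM, while Cox7a2, the form of other tissues, stayed at 457 ± 41.7 FPKM. Ckmt2 held at least 99.8% of mitochondrial creatine kinase and Ckm at least 96.8% of the cytosolic form. Slc2a4, the insulin-dependent glucose transporter GLUT4, held 89.6%, 93.0%, 95.8% and 96.9% against Slc2a1. Ldhb, the heart form of lactate dehydrogenase, held 60.1% to 71.6%. Pygm and Pygb, the muscle and brain forms of glycogen phosphorylase, were on a par at 541 ± 79.1 and 522 ± 106 FPKM, although Pygm held 63.3% per principal length.

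In both families of translation genes the leading share differed between libraries. Rpl3 is the general form of ribosomal protein L3 and Rpl3l is its paralog of heart and skeletal muscle. Rpl3 held 76.4%, 72.2%, 35.6% and 54.5% of the pair, with Rpl3l ahead in G3 3 at 228 against 126 FPKM. Eef1a1, the general elongation factor, held 78.9%, 73.8%, 54.8% and 64.0% against Eef1a2, the form of muscle and neurons, which stayed at 457 ± 23.2 FPKM. Rpl3 and Eef1a1 share 85.6% and 60.6% of their 50-base stretches with other annotated transcripts, mostly pseudogenes, and Rpl3l and Eef1a2 share none, so the level of the first of each pair is uncertain. Hsp90aa1, the stress-inducible HSP90, was listed at 0.904 FPKM on average beside Hsp90ab1 at 1106 FPKM (0.327 and 387 FPKM per principal length), and shares 58.5% of its stretches. Cpt1b, the muscle form of the gate enzyme of fatty acid oxidation, was listed at 16.4 FPKM, and at 6.68 FPKM per principal length. Of its exonic bases 94.8% lie under exons of a second annotated gene, Gm44502, so its level and its share against Cpt1a are uncertain.

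**Figure D3:**
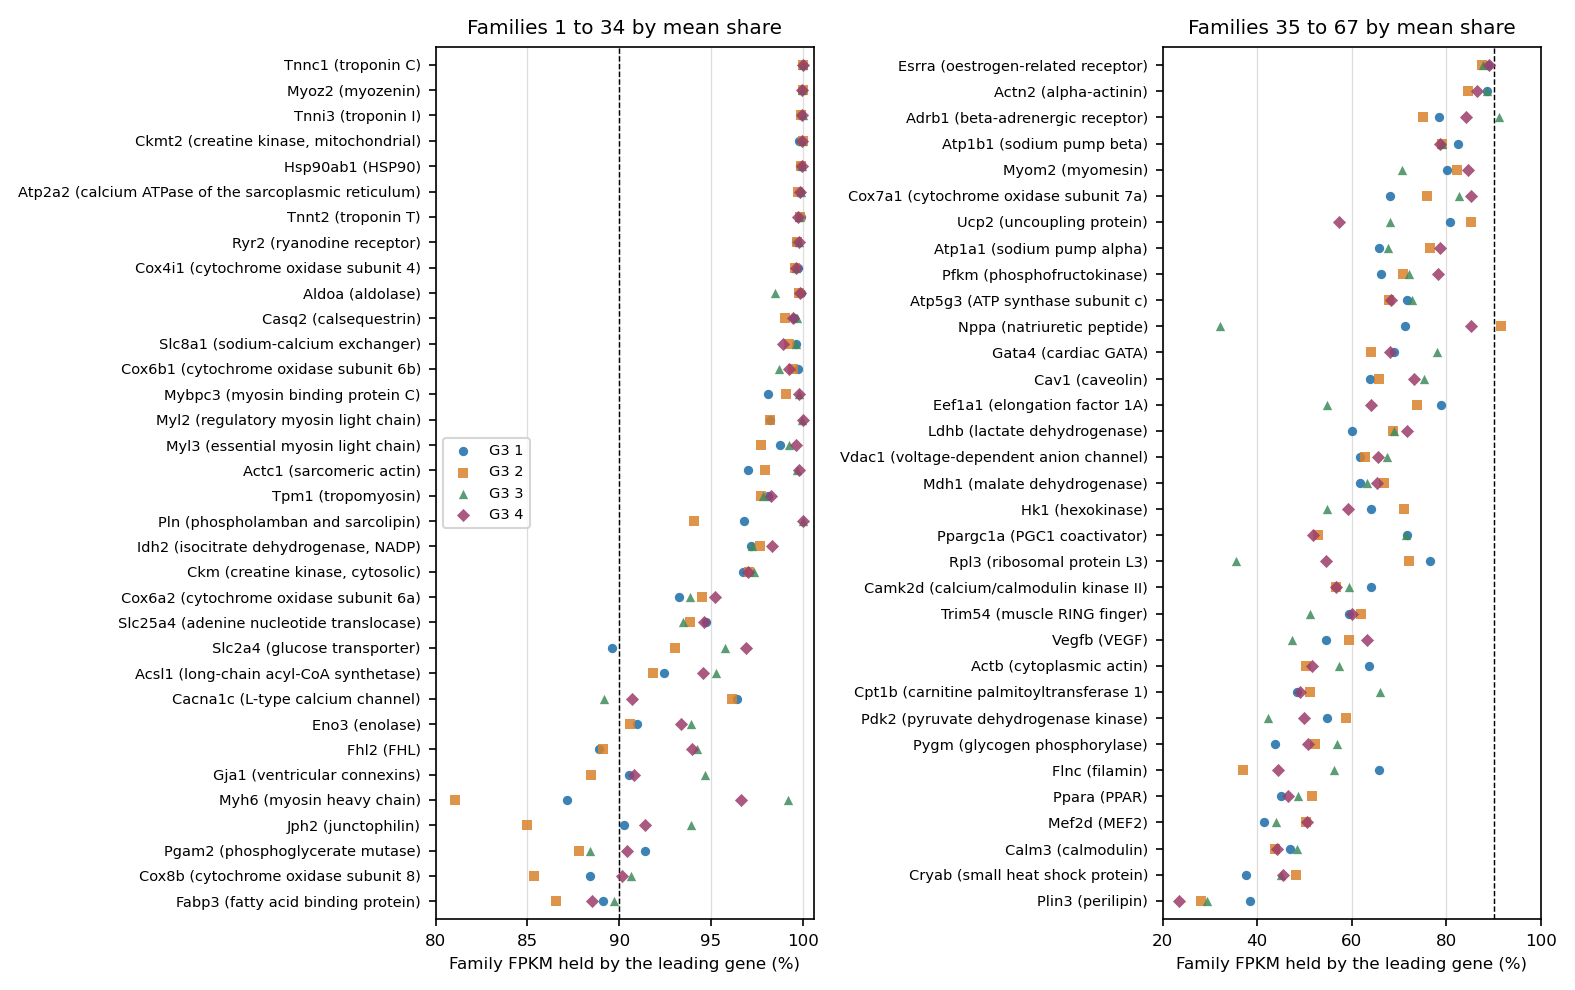
Share of the family FPKM held by the leading gene (horizontal, percent) in each library for 67 paralog families, sorted by mean share, with a dashed line at 90%. The left panel starts at 80%; its upper 23 families lie right of the line in every library, while Myh6 spreads from 81.04% to 99.2%, and the right panel holds families such as Nppa (32.0% to 91.5%) and Rpl3 (35.6% to 76.4%).

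Spread between libraries was measured on 8456 genes with a mean count of at least 100, as the CV of TMM-scaled CPM. The median CV was 17.6%, of which counting error alone would give 5.57%, and 50% of genes lay between 11.8% and 25.5%. The CV exceeded 50% for 331 genes (3.91%) and stayed under 10% for 1464 (17.3%). The common biological CV fitted with edgeR and an intercept only was 25.9%. By class, median CVs were lowest for proteasome and ubiquitin genes (15.8%), mitochondrial import and quality control (16.7%) and ATP synthase (16.9%). They were 30.7% for extracellular matrix, 38.0% for the thick filament and 50.1% for immune and MHC genes, of which 23 of 46 exceeded 50%. No gene of the cytosolic ribosome (80 genes) or of complex I (46) exceeded 50%, where 3.91% of all genes did. Their median CVs, 22.1% and 18.3%, lay above the 17.6% of all genes. Under 10% were 3.75% and 6.52% of them, against 17.3% of all genes. Other classes, such as the mitochondrial ribosome (77 genes), also had no gene over 50%.

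The 20 steadiest genes among 1437 with a mean count of at least 1000 had CVs of at most 4.49%. Ndrg2, a cytoplasmic protein of the N-myc downstream regulated family, was the steadiest, with 1226, 1277, 1257 and 1244 CPM (CV 1.70%). Tmed9, which acts in transport between endoplasmic reticulum and Golgi, had 85.9, 83.5, 87.9 and 87.2 CPM, a spread within its counting error. Nedd4, a ubiquitin ligase, had 456, 439.8, 457 and 435 CPM, and Sptbn1, beta spectrin of the membrane skeleton, had 911, 928, 872 and 889.8 CPM. Of the 20 genes, 4 encode mitochondrial proteins of the inner membrane or respiratory chain, namely Cox7a2, Ndufb9, Ndufa6 and Timm17a. Nuclear genes of the same classes (respiratory complexes, ATP synthase, mitochondrial ribosome, import and quality control) made up 112 of the 1437 (7.79%). Adk, adenosine kinase, had 122, 115, 121 and 122 CPM. Also among them were Thrap3, Msi2, Anp32a, Ctdsp1, Cap2, Hnrnpdl, Stk11, Rbm39 and Atp6ap1, with CVs from 2.50% to 4.49%. These ranks depended on the scaling and on single libraries. Scaled to total counts in place of TMM, the 20 genes had CVs of 4.82% to 10.8% and none remained among the 20 steadiest, and only 2 to 6 remained when 1 library was left out.

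None of 16 genes in common use as references was among the 20 steadiest. Of the 16, 3 (18.8%) had CVs under 10%, among them Tbp (8.32%) and Ywhaz (8.35%), close to the 17.3% of all genes, and 7 lay above the median of all genes. Gapdh, the glycolytic enzyme, had 1496, 1525, 1765 and 2045 CPM (CV 14.9%), and Actb, cytoplasmic beta actin, 236, 198, 278 and 287 CPM (CV 16.4%). Ppia and Rpl13a stood at 24.3% and 26.7% and Tfrc at 41.8%. B2m, the light chain of MHC class I, exceeded 50%, with 228, 662, 149 and 661 CPM. It was high in G3 2 and G3 4 and low in the other pair.

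**Figure D4:**
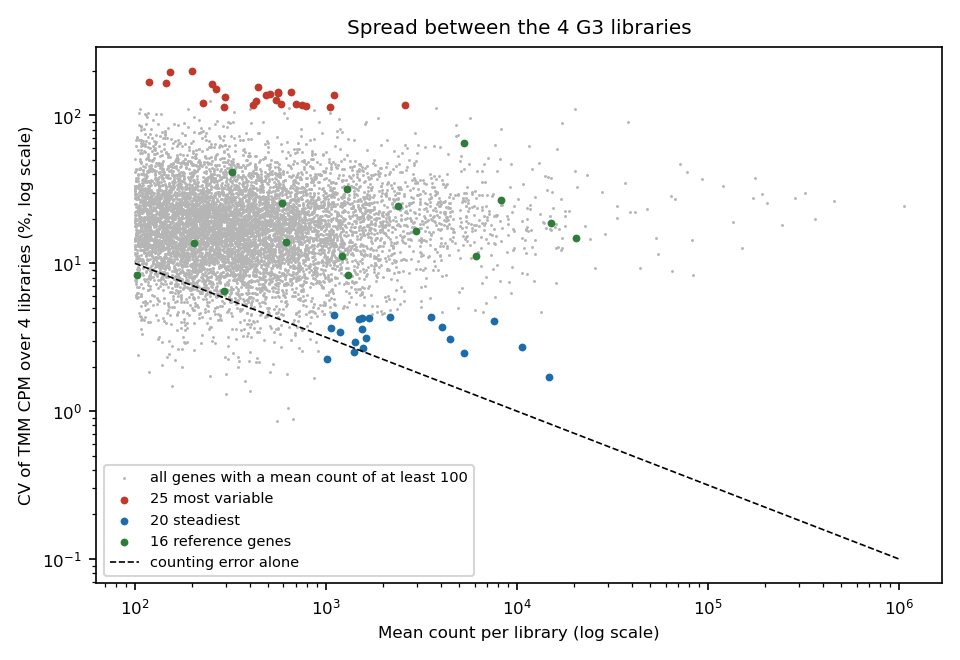
CV of TMM CPM over the 4 libraries (vertical, percent, log scale) against mean count per library (horizontal, log scale) for 8456 genes, with the 25 most variable, the 20 steadiest and 16 reference genes in colour and the counting error alone as a dashed line. Most genes lie above that line, the 25 most variable ones have CVs over 114%, and the reference genes reach up to 64.8%.

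The 25 most variable genes were ranked by CV after removal of the counting part. Several genes of antigen presentation and immunity-related GTPases among them were highest in G3 4. H2-Eb1, a chain of MHC class II, had 5.73, 23.5, 7.73 and 139 CPM, and H2-Aa had 4.98, 24.0, 7.55 and 123 CPM. H2-Ab1 had 4.23, 24.6, 8.11 and 115 CPM, and Cd74, the invariant chain that accompanies class II through the cell, had 13.5, 58.9, 13.0 and 261 CPM. Igtp, an immunity-related GTPase, had 10.7, 37.2, 9.22 and 126 CPM, and the GTPase-like genes Gm4841 and F830016B08Rik were highest in G3 4 at 68.1 and 115 CPM. Irgm2, Iigp1 and Cd274, chosen after their values were seen, had 120.4, 214 and 24.4 CPM in G3 4. All 10 of these genes were highest in G3 4 and next highest in G3 2, where 25.4% of all 8456 genes were highest in G3 4. The 10 were grouped with these values known, so their count is a description and not a test. T and B cell markers summed to 0.564, 0.610, 0.466 and 4.04 CPM and macrophage markers to 474, 438, 221 and 195 CPM in G3 1 to 4, and their part in the class II values was not tested.

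Class II genes share a promoter element, the Y box, bound by NF-Y. Its letters CTGATTGG, searched on both strands, occur in 4.10% of 32851 RefSeq promoters of 300 bases (GRCm38.p6, 250 bases before to 50 after the start). They were found for H2-Aa and H2-Eb1, which are the 2 of 4 genes searched (H2-Aa, H2-Ab1, H2-Eb1 and Cd74) that have an entry. A match is a description of the letters and not a site of binding. The stretches of 120 bases are shown because both genes are among the 25, with the motif in capitals, for chr17:34287811-34287930 on the minus strand and chr17:34305749-34305868 on the plus strand:
H2-Aa: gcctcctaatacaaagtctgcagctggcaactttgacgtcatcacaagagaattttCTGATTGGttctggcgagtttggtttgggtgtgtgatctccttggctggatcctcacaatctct
H2-Eb1: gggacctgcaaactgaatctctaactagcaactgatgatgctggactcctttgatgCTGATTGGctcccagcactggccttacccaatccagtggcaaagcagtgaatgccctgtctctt

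Several genes of the extracellular matrix and its turnover were highest in G3 1. Ccn2, connective tissue growth factor, had 638, 147, 67.3 and 72.5 CPM, and Ccn5, of the same family, had 78.6, 13.9, 2.05 and 2.10 CPM. Postn, periostin, made by activated fibroblasts, had 179, 62.6, 12.3 and 11.9 CPM. Lox, which crosslinks collagen, had 54.8, 20.1, 3.82 and 1.71 CPM. Mybpc2, the fast skeletal form of myosin binding protein C, was also highest in G3 1, with 78.9, 17.1, 5.59 and 4.98 CPM. In all 5 genes G3 1 was first and G3 2 second, with G3 3 and G3 4 the lowest 2. Ankrd1, a stretch-responsive cardiac ankyrin repeat protein chosen after its values were seen, had 4636, 1393, 254 and 819 CPM. Fibroblast markers summed to 823, 962, 588 and 481 CPM in G3 1 to 4. Most of this sum was Dcn, with 614, 776, 394 and 292 CPM. The 6 markers were divided: Dcn, Pdgfra and Col1a1 were lowest in G3 4, whereas Lum, Col3a1 and Tcf21 were highest there. The part of fibroblasts in the values of the genes above was not tested.

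Further genes on the list were high in 1 or 2 libraries. Cxcl13, a chemokine, had 152, 45.6, 2.80 and 0.389 CPM, and Saa3, an acute phase protein, had 101, 48.1, 1.96 and 0.0778 CPM. Angptl7, an angiopoietin-like protein, had 39.6 CPM in G3 2 and at most 3.76 elsewhere. Scd4, a fatty acid desaturase, had 189 CPM in G3 1 and at most 22.4 elsewhere. Genes of red blood cells were highest in G3 3. Hbb-bt had 92.3, 9.31, 252 and 30.3 CPM, Hba-a1 15.5, 10.3, 142 and 28.0 CPM, and Alas2, the haem synthesis enzyme of red cells, 25.6, 4.27, 70.5 and 6.61 CPM. Erythroid markers summed to 677, 113, 1667 and 286 CPM. Hba-a1 and Hbb-bt share 67.5% and 58.3% of their stretches with other transcripts, mainly the neighbouring globin copies.

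**Figure D5:**
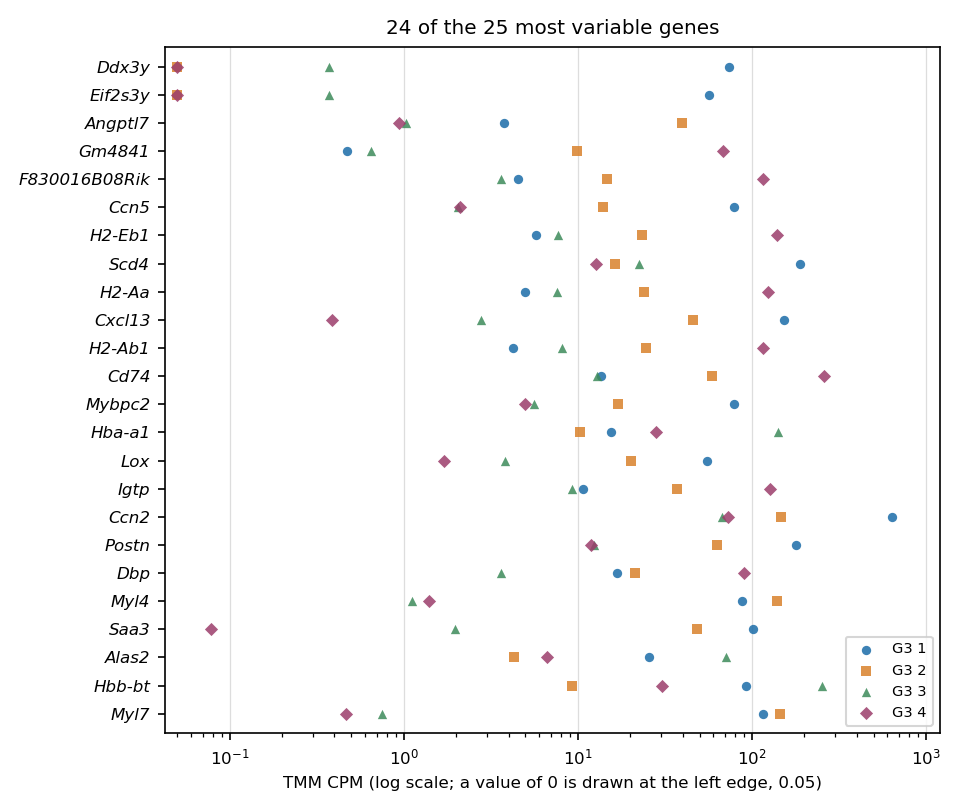
TMM CPM (horizontal, log scale) of 24 of the 25 most variable genes in each library, 1 symbol per library, with values of 0 drawn at the left edge. H2-Aa, H2-Ab1, H2-Eb1 and Cd74 have their highest symbol in G3 4, Ccn2, Ccn5, Postn and Lox in G3 1, and Myl4 and Myl7 are high in G3 1 and G3 2.

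The circadian clock couples activators, Arntl and Clock or Npas2, to the Per and Cry repressors and to output factors such as Dbp, and activator and output messages peak at opposite times of day. Dbp, on the list of 25, had 16.7, 21.2, 3.63 and 90.1 CPM. The other clock genes were looked up after that value was seen. Per2 had 21.7, 43.8, 7.08 and 57.1 CPM, Per3 12.6, 22.4, 5.68 and 35.6 CPM and Ciart 7.52, 9.16, 2.80 and 17.8 CPM. Arntl was highest in G3 3 and lowest in G3 4, with 9.97, 8.47, 22.0 and 0.467 CPM, and Clock had 49.1, 30.1, 66.2 and 19.1 CPM. Of 10 output and repressor genes, 9 were highest in G3 4 and 7 were lowest in G3 3, where 25.4% and 24.6% of all 8456 genes were. The exception in G3 4 was Cry1, a repressor, with 7.71, 13.2, 15.6 and 13.2 CPM. Hlf, Nr1d1 and Cry1 were lowest in G3 1, Hlf with 6.58 and Nr1d1 with 36.4 CPM there. The 10 genes include Dbp and were grouped after its value was seen, so these counts are a description and not a test. The time of day of collection is not given in the sources used here. The E box letters CACGTG occur in 7.15% of the RefSeq promoters, and 4 of 12 clock genes with an entry had them in at least 1 promoter, against 8.09% of all genes. Dbp, Per3, Arntl and Clock were among those without them. The 4 genes with the letters were Tef, Per1, Ciart and Cry1, the last being the exception above. Stretches of 60 bases are shown for 3 of these, with the motif in capitals, at chr15:81802519-81802578 (plus strand), chr11:69098756-69098815 (plus) and chr3:95882312-95882371 (minus):
Tef: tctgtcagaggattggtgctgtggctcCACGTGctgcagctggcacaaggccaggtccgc
Per1: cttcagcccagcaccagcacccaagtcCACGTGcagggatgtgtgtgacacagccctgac
Ciart: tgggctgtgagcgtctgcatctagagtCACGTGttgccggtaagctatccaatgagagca

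The first 2 genes of the list are Ddx3y and Eif2s3y, whose values are given with the libraries above. Of the 25 genes, 10 were highest in G3 1, 3 in G3 2, 4 in G3 3 and 8 in G3 4. Of all 8456 genes, 25.6%, 21.3%, 27.7% and 25.4% were highest in G3 1 to 4. Among all 331 genes with a CV over 50%, 85 (25.7%) were at least 2-fold higher in both G3 1 and G3 2 than in both others, and 30 (9.06%) in both G3 2 and G3 4. Over all 8456 genes these patterns held for 93 (1.10%) and 41 (0.485%). Of the 331, genes at least 2-fold over the next library numbered 45 in G3 1, 16 in G3 2, 18 in G3 3 and 30 in G3 4. Over all 8456 genes they numbered 49, 18, 20 and 31. The first 2 principal components of log2 CPM took 50.9% and 37.3% of the variance, the first with G3 1 and G3 2 on one side and G3 3 and G3 4 on the other, the second with G3 1 and G3 3 on one side and G3 2 and G3 4 on the other. The second split coincides with the sample codes, which hold G2 for G3 1 and G3 3 and G3 for G3 2 and G3 4, and the part of whatever the codes stand for was not tested. The libraries also differed with transcript length. Across genes, Spearman's rho of a library's deviation from the mean with principal length was 0.147, −0.143, 0.226 and −0.273 in G3 1 to 4. Its sign follows the same second split, so the codes and the length trend cannot be told apart in these libraries. The part of transcript length in the spread was not tested.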

How the data were processed

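The authors deposited a table of counts per Ensembl gene, as whole numbers with no normalization, and a table of FPKM, which equals those counts divided by gene length and library total. CASAVA, Bowtie 0.12.2 and the mm9 build are named, per the submitters' processing notes. How reads were assigned to genes (program, gene models, strand, several matches) is not given in the sources used here. Per the labels' protocols, Trizol was used for extraction and a TruSeq RNA kit, a kind that keeps no strand information, for the libraries. Antisense and overlapping genes cannot be told apart.

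Gene names came from a table that matched 21748 of 22027 identifiers; the 279 unmatched genes held at most 0.0279% of counts in a library. The length behind each FPKM was recovered from both tables and set against GENCODE M21 transcripts, which are of GRCm38; no position is given in mm9. Counts were scaled with TMM in edgeR 4.0.16 under R 4.3.3. The counting part of a CV is the root of the mean of 1/count, with a count of 0 entered as 1. Shared 50-base stretches were counted on both strands over all M21 transcripts, since the read length is not given in the sources used here. The scripts were tested on simulated counts. No test between groups was made, because only 1 group is described.

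Named genes are the 20 highest by mean FPKM, the 10 highest by share of counts, the 3 highest of each functional class, the leader and runner-up of each paralog family, the 25 most variable (mean count at least 100), the 20 steadiest (mean count at least 1000), reference genes and tissue markers. Some genes that this rule names are not reported here. Members and lists were chosen with earlier results of these data known. Genes outside this rule belong to a named family or are marked in the text as chosen with their values known. Alternatives tried were other scalings (total counts, upper quartile, RLE from DESeq2 1.42.0), other filters, other lengths and each library left out in turn. Files of samples titled G3 PGC1aOE were not used.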

Additional observations from a re-analysis of the deposited data

Results flagged for a closer look

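In 196 reported values over 4 libraries, 20 had 1 library set apart from the other 3 by a gap that, divided by the whole range, exceeded Dixon's 95% critical value for 4 samples. Chance sets apart about 1 in 20, and the 25 most variable genes were chosen for their spread. The library set apart was G3 1 in 8 values, G3 2 in 2, G3 3 in 3 and G3 4 in 7.

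G3 1 was highest for the sarcomere share of counts (11.4%, the next being 9.41%) and for the share of Atp1b1 among sodium pump beta genes (82.5%, next 79.0%). It was also highest for Ddx3y (74.3 CPM), Eif2s3y (57.0 CPM), Ccn5 (78.6 CPM), Scd4 (189 CPM), Mybpc2 (78.9 CPM) and Ccn2 (638 CPM). G3 2 was highest for Angptl7 (39.6 CPM) and for adipocyte markers, which summed to 31.9 CPM where the next library had 1.97 CPM. G3 3 was highest for the mitochondrial upkeep share of counts (1.08%, next 1.02%), for the share of Cpt1b in its family (66.0%, next 51.2%) and for Hba-a1 (142 CPM). G3 4 was highest for Gm4841 (68.1 CPM), F830016B08Rik (115 CPM), H2-Eb1 (139 CPM) and H2-Aa (123 CPM), for Ndufb9 (683 CPM, next 633 CPM), for T and B cell markers (4.04 CPM) and for epicardial markers (14.4 CPM, next 7.17 CPM).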

How the results depend on the processing

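No paired analysis was possible because only 1 group was described and its results come from no test. Left-out libraries moved the main values within these ranges: genes detected 10515 to 10666, share of the top 10 genes 27.6% to 30.5%, genes holding 50% of counts 89.3 to 118, median CV 16.1% to 17.4%, genes with a CV over 50% 324 to 412 and under 10% 1817 to 2172, biological CV 24.8% to 27.2%. Genes detected numbered 6775 at an FPKM of 5. With mitochondrially encoded genes left out of the total, the top 10 genes held 12.8% of counts, 426 genes held 50%, the sarcomere held 13.8% of counts and 15.7% of FPKM, and the nuclear respiratory chain 7.44% and 13.5%. As shares of FPKM in place of counts, the top 10 held 34.5% and 34.2 genes held 50%; per principal length, which was chosen after seeing the data, these were 42.2% and 17.5, the mitochondrial genome held 46.3% and the sarcomere 8.05%. With a mean count of at least 10, 1012 genes had a CV over 50%; with at least 1000, 51 did and 203 were under 10%. The 25 most variable genes kept 22 members with total counts, 25 with RLE and upper quartile scaling, 13 to 20 without 1 library, and 15 and 12 by the SD of log2(FPKM + 1) and log2(FPKM + 0.1); 23 of them had a CV over 50% whichever library was left out. The 20 steadiest kept 19 with RLE, 18 with upper quartile and 0 with total counts or either SD of log2 FPKM.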
